A study of Mus musculus with 6 samples.

Results

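The SWI/SNF chromatin remodelling subunits described here are 10 mouse genes, taken from a fixed list of names and found by Ensembl identifier among the 39179 genes counted in each library. They are Arid1a, Arid1b, Arid2, Smarca4, Smarca2, Smarcb1, Smarcc1, Smarcc2, Smarce1 and Pbrm1. Arid1a was selected on its level, measured as higher in 2 shallowly sequenced Sirpa-KO libraries than in Sirpa-WT, so the Sirpa-KO to Sirpa-WT difference of Arid1a is given as a description with no test. The other 9 genes came in by their membership of the complex.

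RNA came from cultured B16-F10 cells, a pigmented mouse melanoma line of C57BL/6 origin, either with a knockout of Sirpa (Sirpa-KO, 3 libraries) or with that gene intact (Sirpa-WT, 3 libraries). Sirpa encodes SIRPα, a membrane receptor for CD47, and the question is what differs in expression at steady state between the lines. No treatment or time is given for either group, and nothing in the labels says how the gene was edited, whether a line is 1 clone, or whether each replicate was its own culture. The p-values therefore speak only of spread among these libraries, which may be technical. The sample fields call the cell line Pmel and the tissue tumour, at odds with the series text on cultured B16-F10 cells. Melanocyte markers looked up (10 genes, among them Tyr, Tyrp1 and Dct) were each detected, with a summed level of 12836 to 13265 CPM (counts scaled to a common library total) in Sirpa-KO replicates 2 and 3, 16224 in Sirpa-KO replicate 1 and 16270 to 19395 in Sirpa-WT. Without Sirpa-KO replicate 1, edgeR called 3 of the 10 lower in Sirpa-KO (Mitf, Dct and Pmel), where 4.52% of all genes tested were called lower. The summed level of 7 leukocyte markers was 17.7 to 32.6 CPM in Sirpa-KO replicates 2 and 3, 3.25 in Sirpa-KO replicate 1 and 9.72 to 23.3 in Sirpa-WT, with Ptprc and Cd3e at 0 in each of the 5 shallow libraries. Most of that sum in the shallow libraries was Itgam, an integrin gene of myeloid cells, with 5 and 9 counts in Sirpa-KO replicates 2 and 3 and 3, 7 and 5 in Sirpa-WT. The part of these markers in the results below was not tested.

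Depth differed between the libraries. Sirpa-KO replicate 1, called the deep library below, held 29877270 counts, 82.6 times the mean of the other 5, which held 338824 to 411695 and are called shallow. Pseudogenes took 0.216% of counts in the deep library, 27.01% to 27.2% in Sirpa-KO replicates 2 and 3 and 29.1% to 30.2% in Sirpa-WT. In a shallow library 1 count is worth 2.43 to 2.95 CPM, and a count of 0 allows up to 7.29 to 8.85 CPM (3 counts, counting error only). The edited gene itself had 1584, 6 and 6 counts in Sirpa-KO replicates 1 to 3 and 12, 7 and 3 in Sirpa-WT, so Sirpa counts do not check the genotype labels. The 10 subunits together had 30026 counts in the deep library, 237 and 285 in Sirpa-KO replicates 2 and 3 and 221 to 253 in Sirpa-WT.

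SWI/SNF complexes use the energy of ATP to slide or evict nucleosomes and so open DNA to transcription factors. Each holds a single ATPase, either BRG1 (Smarca4) or BRM (Smarca2). In the canonical BAF and the PBAF forms it is joined by a core of SMARCC1, SMARCC2, SMARCB1 and SMARCE1. Variant subunits then set the type of complex, ARID1A or ARID1B in the BAF form and ARID2 with PBRM1 in the PBAF form. In melanocytes and melanoma cells BRG1 is known as a cofactor of the lineage factor MITF, and genes of these subunits are often mutated in human cancers.

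Promoter sequences are shown for Arid1a, the gene whose difference led to the list, for Smarca4, the ATPase gene with the highest level, and for Pbrm1, whose window alone held the E-box that MITF can bind. They are the 250 bases before the transcription start in RefSeq, build GRCm38.p6, written 5′ to 3′ on the gene's strand. Capitals mark GC boxes (GGGCGG on either strand) and the E-box CACGTG.
Arid1a, chr4:133756770-133757019, minus strand: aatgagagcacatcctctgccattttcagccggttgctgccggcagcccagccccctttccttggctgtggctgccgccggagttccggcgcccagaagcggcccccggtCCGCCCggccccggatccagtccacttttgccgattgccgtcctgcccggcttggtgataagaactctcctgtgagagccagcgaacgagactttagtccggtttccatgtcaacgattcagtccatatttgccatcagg
Smarca4, chr9:21615919-21616168, plus strand: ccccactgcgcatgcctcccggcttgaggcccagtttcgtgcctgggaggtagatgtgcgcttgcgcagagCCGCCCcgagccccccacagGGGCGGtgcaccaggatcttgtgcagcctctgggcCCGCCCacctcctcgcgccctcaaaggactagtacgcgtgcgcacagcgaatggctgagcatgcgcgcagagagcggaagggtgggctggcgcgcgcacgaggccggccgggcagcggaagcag
Pbrm1, chr14:31018888-31019137, plus strand: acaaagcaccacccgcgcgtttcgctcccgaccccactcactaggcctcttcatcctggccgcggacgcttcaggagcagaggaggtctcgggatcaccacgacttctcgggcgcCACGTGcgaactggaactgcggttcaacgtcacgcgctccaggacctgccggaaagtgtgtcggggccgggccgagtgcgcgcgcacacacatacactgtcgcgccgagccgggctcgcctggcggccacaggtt
RefSeq windows were found for 8 of the 10 genes, 9 windows in all because Arid1a has 2 starts. The Arid1a window shown had 61.2% G and C and 1 GC box. The window not shown (chr4:133753986-133754235) had 81.6% and 7 GC box matches, some overlapping. These windows were rich in G and C, at 59.6% to 81.6%, against a median of 52.4% over 32851 mouse promoter windows of the same length. A GC box stood in 7 of the 9 windows and in 32.7% of all windows, and the E-box CACGTG in 1 of 9 and in 6.02% of all. The variant E-box CATGTG (12.2% of all windows) and the TATA box TATAAA (12.4%) were found in none of the 9 on either strand, and the ETS motif CCGGAAG (6.91%) was found in 2, those of Smarca2 and Smarcc1. These are letter matches, not measured binding sites.

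Among the ARID subunits, Arid1a stood higher in Sirpa-KO than in Sirpa-WT, in the deep library as well as in the 2 shallow ones. Arid1a (ENSMUSG00000007880, GRCm38 chromosome 4, 133679008 to 133756769, minus strand, 21 merged exons) encodes the large DNA-binding subunit that defines canonical BAF. Its counts were 2553, 24 and 31 in Sirpa-KO replicates 1 to 3 and 12, 11 and 12 in Sirpa-WT, which is 85.4, 70.8 and 84.3 CPM in Sirpa-KO and 29.1, 31.99 and 34.7 CPM in Sirpa-WT. The lowest Sirpa-KO library lay above the highest Sirpa-WT library, as for 20.4% of genes tested over all 6 libraries, and the spread within Sirpa-WT was 2.79 CPM (SD, n = 3). The fitted log2 fold change was 1.16 without the deep library and 1.17 with all 6, and it ran from 0.95 to 1.42 over the settings tried. These values chose the gene and are a description. In bulk RNA, a gene expressed in more or fewer cells and one with more or less RNA per cell cannot be told apart.

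The deep library took no part in choosing Arid1a, yet its level there needs the background of that library. For 51.3% of the 5510 genes tested, CPM in the deep library lay above each Sirpa-WT library, and for 44.7% below each. Set against the Sirpa-WT mean, Arid1a in the deep library had a log2 ratio of 1.42, against a median of 1.03 over 4290 protein-coding genes (quartiles -0.67 and 1.54), which puts Arid1a at the 69.0th percentile. The Sirpa-WT values in that ratio took part in choosing the gene, so this place is not independent of the choice. Against the mean of the shallow libraries of both groups the log2 ratio of Arid1a was 0.77. The median there was 0.92, and Arid1a stood at the 43.7th percentile. Against the shallow Sirpa-KO mean alone its log2 ratio was 0.14, with no background over all genes given. With 1 deep library there is no replicate for any of these ratios.

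**Figure D1:**
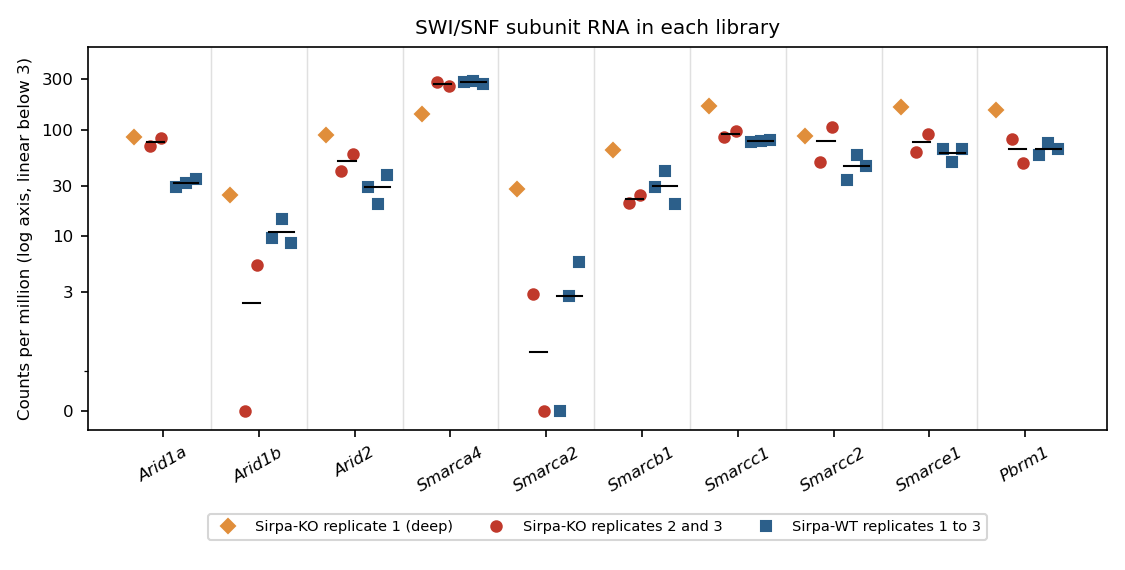
CPM of the 10 subunits in each library on an axis that is logarithmic above 3 CPM, with Sirpa-KO replicate 1 as diamonds, Sirpa-KO replicates 2 and 3 as circles, Sirpa-WT as squares and short lines for the means of the circles and squares. Arid1a lies at 70.8 to 85.4 CPM in Sirpa-KO against 29.1 to 34.7 in Sirpa-WT. The Smarca4 diamond lies below all of its other symbols, unlike that of any other subunit. Smarce1 is drawn without the counts of its pseudogene copy Gm8494.

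Arid1b, the alternative to ARID1A in BAF (ENSMUSG00000069729, chromosome 17, 4994332 to 5347656, plus strand), was near the floor of the shallow libraries. It had 735, 0 and 2 counts in Sirpa-KO replicates 1 to 3 and 4, 5 and 3 in Sirpa-WT. The 2 shallow Sirpa-KO libraries lay below each Sirpa-WT library, but these are differences of a few fragments. Scaled by TMM, shallow Sirpa-KO over Sirpa-WT came to 0.239 (exact 95% limits 0.0260 and 1.07, counting error alone). Arid1b did not pass the count filter. In the fit without a filter edgeR gave an unadjusted p of 0.0430 and an adjusted p of 0.493, and the fitted size depends on the prior count since 1 library is at 0.

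The share of Arid1a in the 2 paralogs, per kilobase of exon, was 79.2%, 100% and 94.45% in Sirpa-KO replicates 1 to 3 and 76.7%, 70.7% and 81.5% in Sirpa-WT. Arid1a had the larger share in each library. The exact intervals of Sirpa-WT replicate 1 (49.96% to 93.3%) and replicate 2 (43.6% to 89.9%) also held equal shares, however. The deep library lay within the Sirpa-WT range. The shallow Sirpa-KO libraries lay above it, on 0 to 5 counts of Arid1b per shallow library. The intervals of Sirpa-KO replicates 2 and 3 (86.9% to 100% and 81.2% to 99.3%) overlapped that of each Sirpa-WT library. The shallow shares use the Arid1a counts that chose the gene, and their difference was not tested.

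Arid2, the ARID subunit of PBAF (ENSMUSG00000033237, chromosome 15, 96287518 to 96404992, plus strand), had 88.7, 41.3 and 59.8 CPM in Sirpa-KO replicates 1 to 3 and 29.1, 20.4 and 37.6 CPM in Sirpa-WT. Each Sirpa-KO library lay above each Sirpa-WT library, again as for 20.4% of genes. The difference did not pass edgeR's test, at 0.68 ± 0.36 on the log2 scale (SE, adjusted p = 0.263) without the deep library and 0.97 ± 0.44 (adjusted p = 0.574) with all 6. In counts Arid2 had 14 and 22 in Sirpa-KO replicates 2 and 3 and 12, 7 and 13 in Sirpa-WT.

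Pbrm1 encodes the bromodomain protein of PBAF (ENSMUSG00000042323, chromosome 14, 31019138 to 31121592, plus strand). It had 155, 82.6 and 49.0 CPM in Sirpa-KO replicates 1 to 3 and 58.3, 75.6 and 66.6 CPM in Sirpa-WT. The shallow Sirpa-KO libraries fell on either side of the Sirpa-WT range. The log2 fold change was -0.15 ± 0.29 (SE, edgeR adjusted p = 0.827) without the deep library and 0.36 ± 0.46 (adjusted p = 0.742) with it. Without both the deep library and Sirpa-KO replicate 3 it was 0.18, so the sign turns on single libraries.

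By the counts assigned to each gene, Smarca4 was by far the most abundant of the 10 subunits in the shallow libraries. Its partner ATPase gene Smarca2 was close to undetected there. Smarce1 with the counts of its pseudogene copy Gm8494 added, described below, had 373 to 459 CPM in those libraries, above Smarca4. Smarca4 (ENSMUSG00000032187, chromosome 9, 21616169 to 21704230, 35 merged exons on the plus strand) had 141, 283 and 256 CPM in Sirpa-KO replicates 1 to 3 and 282, 285 and 272 CPM in Sirpa-WT. Sirpa-KO replicate 2 lay within the Sirpa-WT range and replicate 3 below it, while the deep library lay far below each of the others. Without the deep library the log2 fold change was -0.18 ± 0.16 (SE, edgeR adjusted p = 0.594). The TMM-scaled ratio over these libraries was 0.884 (exact 95% limits 0.734 and 1.06, counting error alone). With all 6 libraries the log2 fold change was -0.45 ± 0.37 (adjusted p = 0.612).

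The low Smarca4 level in the deep library is measured on 4201 counts, an exact 95% counting interval of 136 to 145 CPM. Its log2 ratio to the mean of the shallow libraries was -0.97, where the median over 4290 protein-coding genes was 0.92. Over those genes the ratios have 2 peaks, an upper and a lower group, and 31.7% lay more than 1 below the median. By the counts assigned to each gene, Smarca4 was the 1 such gene among the 8 subunits that passed the count filter. The other 7 had ratios of 0.57 to 1.29. With Gm8494 added, Smarce1 had 164 CPM in the deep library, below the 373 to 459 CPM of the shallow ones. Timm29, a tested gene that starts 23.4 kb below Smarca4 on chromosome 9, also lay in the lower group, at -1.16, and its log2 fold change without the deep library was -0.091 (edgeR adjusted p = 0.890).

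**Figure D2:**
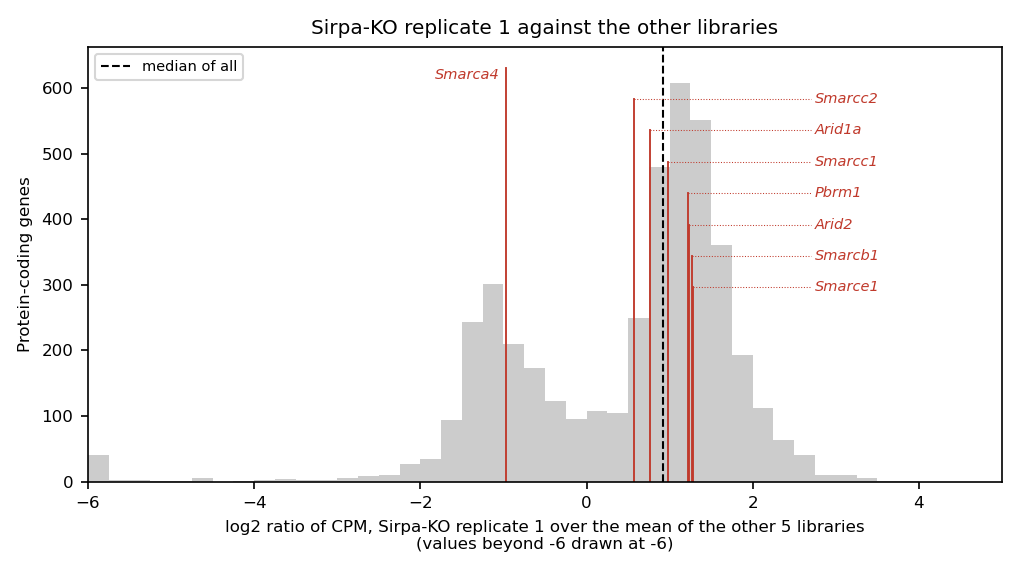
Histogram of the log2 ratio of CPM in Sirpa-KO replicate 1 to the mean of the 5 shallow libraries over 4290 protein-coding genes, with the median as a dashed line and the 8 subunits that passed the count filter as red lines. Smarca4 lies at -0.97 in the lower of the 2 groups, and the other 7 lie at 0.57 to 1.29 around the median of 0.92. Smarce1 is drawn without the counts of its pseudogene copy Gm8494.

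Smarca2, the gene of the alternative ATPase BRM (ENSMUSG00000024921, chromosome 19, 26605115 to 26778321, plus strand), had 827, 1 and 0 counts in Sirpa-KO replicates 1 to 3 and 0, 1 and 2 in Sirpa-WT. In the deep library that was 27.7 CPM, above the 7.29 to 8.85 CPM that 3 counts are worth in a shallow library. No change can be read over the shallow libraries, since both groups lie at or under that floor. Smarca4 made up 86.0% of the 2 ATPases per kilobase in the deep library (exact 95% interval 85.1% to 86.9%) and 98.3% to 100% in the shallow ones, whose lowest lower bound was 93.9%. The deep library therefore differs from each shallow library in this share by more than counting error, while the shallow Sirpa-KO libraries (99.1% and 100%) and Sirpa-WT (98.3% to 100%) overlap.

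The scaffold subunits of the core showed no difference that passed the test. Smarcc1 (ENSMUSG00000032481, chromosome 9, 110132037 to 110240178, plus strand), which encodes the scaffold BAF155, had 167, 85.6 and 97.9 CPM in Sirpa-KO replicates 1 to 3 and 77.7, 78.5 and 81.0 CPM in Sirpa-WT. Each Sirpa-KO library lay above each Sirpa-WT library, by a small margin in the shallow ones, as for 20.4% of genes tested over all libraries. The log2 fold change was 0.10 ± 0.26 (SE, edgeR adjusted p = 0.875) without the deep library and 0.40 ± 0.33 (adjusted p = 0.613) with it.

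Smarcc2, which encodes the related scaffold BAF170 (ENSMUSG00000025369, chromosome 10, 128459236 to 128490173, plus strand), had 87.8, 50.2 and 106 CPM in Sirpa-KO replicates 1 to 3 and 34.01, 58.2 and 46.3 CPM in Sirpa-WT. Sirpa-KO replicate 2 lay within the Sirpa-WT range and replicate 3 well above it. The log2 fold change without the deep library was 0.68 ± 0.29 (SE), with an unadjusted p of 0.0208 and an adjusted p of 0.153 in edgeR. It was 0.0088 without Sirpa-KO replicate 3 and 1.07 without Sirpa-KO replicate 2, so the value rests on 1 library. With all 6 libraries it was 0.67 ± 0.42 (adjusted p = 0.574).

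Per kilobase, Smarcc1 took 58.9% of the 2 scaffolds in the deep library (exact 95% interval 57.8% to 60.1%), 56.3% and 41.1% in Sirpa-KO replicates 2 and 3, and 63.4%, 50.5% and 57.0% in Sirpa-WT. Sirpa-KO replicate 3 was the lowest of the 6. Its interval of 30.1% to 53.0% overlapped those of the other shallow libraries and not that of the deep one.

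Smarcb1 encodes the core subunit SNF5, a tumour suppressor of rhabdoid tumours in humans (ENSMUSG00000000902, chromosome 10, 75896769 to 75921617, minus strand). It had 65.1, 20.7 and 24.5 CPM in Sirpa-KO replicates 1 to 3 and 29.1, 40.7 and 20.3 CPM in Sirpa-WT. The groups overlapped among the shallow libraries, where it had 7 and 9 counts in Sirpa-KO and 12, 14 and 7 in Sirpa-WT. The log2 fold change was -0.52 ± 0.47 (SE, edgeR adjusted p = 0.580) without the deep library and 0.16 ± 0.57 (adjusted p = 0.876) with it.

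Smarce1, which encodes the HMG-box subunit BAF57 (ENSMUSG00000037935, chromosome 11, 99209047 to 99231017, minus strand), had 164, 62.0 and 92.5 CPM in Sirpa-KO replicates 1 to 3 and 65.6, 49.4 and 66.6 CPM in Sirpa-WT. The log2 fold change was 0.23 ± 0.28 (SE, edgeR adjusted p = 0.691) without the deep library and 0.65 ± 0.42 (adjusted p = 0.574) with it. These levels are uncertain, because Smarce1 shares sequence with a processed pseudogene, an intronless copy named Gm8494, in which 76.2% of the 25-base words also occur in Smarce1 transcripts. Gm8494 had 8, 106 and 130 counts in Sirpa-KO replicates 1 to 3 and 162, 125 and 106 in Sirpa-WT, so the copy had more counts than Smarce1 itself in each shallow library and almost none in the deep one. With the counts of Smarce1 and Gm8494 added, the sum was 164, 375 and 446 CPM in Sirpa-KO and 459, 413 and 373 CPM in Sirpa-WT. The log2 fold change of the sum was -0.14 (edgeR adjusted p = 0.630) without the deep library and -0.48 (adjusted p = 0.657) with it. These have the opposite sign to Smarce1 alone. Another processed pseudogene, Smarce1-ps1, was left out of the sum. It had 37, 5 and 7 counts in Sirpa-KO replicates 1 to 3 and 3, 8 and 2 in Sirpa-WT. Of the other members, Smarcc1 shared 7.10% of its words with other genes, Smarcb1 4.43% and Arid1a 4.16%, and the remaining 6 shared 0.036% to 1.73%.

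Read as a set, 8 of the 10 subunits passed the count filter and 0 of the 7 tested passed edgeR's threshold in either fit, Arid1a being left out of the count. Without the deep library edgeR called 322 of 5510 genes (5.84%), 73 higher (1.32%) and 249 lower (4.52%). The other edgeR settings also called 0 of those tested among them. DESeq2 without the deep library gave an adjusted p to 1 of the 7, Smarca4 (0.637), and none to the other 6, so it says nothing of those. At an unadjusted p under 0.05 edgeR found 1 of the 7, Smarcc2, where 20.8% of all genes passed (8.95% as higher), and DESeq2 found 0. With all 6 libraries edgeR called 0 of 5397 genes, with 344 (6.37%) at an unadjusted p under 0.05 and 0 of the 7 among them, and DESeq2 called 1 gene. Scaling by library size alone turned the split into 279 higher and 128 lower, and moved the median log2 fold change to 0.15, against 0.013 with TMM (0.36 against 0.11 over all 6), so small differences depend on the scaling.

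The 7 subunits had a median log2 fold change of 0.10 without the deep library, with a range of -0.52 to 0.68, beside 0.013 over all genes tested. Both shallow Sirpa-KO libraries lay above each Sirpa-WT library for Arid2 and Smarcc1, 2 of the 7, near the 26.3% of all genes tested that did so; Arid1a did too, but was chosen for it. None of the 7 had both shallow Sirpa-KO libraries below each Sirpa-WT library, where 11.8% of all genes did. These CPM are scaled by total counts, on which the bulk of genes stood slightly higher in Sirpa-KO.

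**Figure D3:**
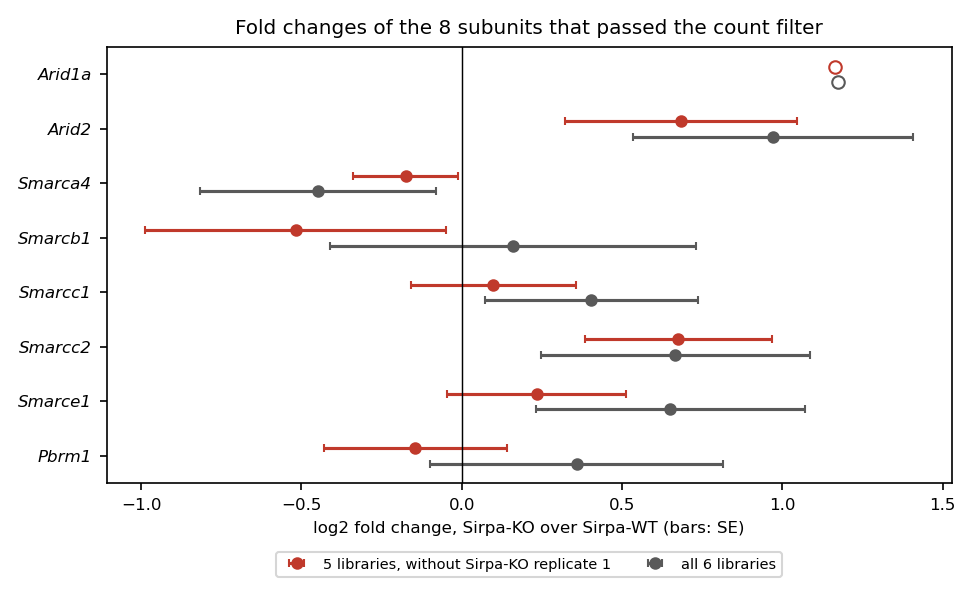
Log2 fold change of Sirpa-KO over Sirpa-WT for the 8 subunits that passed the count filter, without Sirpa-KO replicate 1 (red) and with all 6 libraries (grey), bars showing SE. Arid1a (open circles, no test) stands at 1.16 and 1.17, and Smarcb1 and Pbrm1 lie on opposite sides of 0 in the 2 fits.

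The composition of the subunit RNA can be read within a library, free of scaling between libraries, as each gene's share of the CPM per kilobase summed over the 10. Smarca4 took 16.0% in the deep library, 44.5% and 35.5% in Sirpa-KO replicates 2 and 3 and 49.4%, 46.5% and 45.9% in Sirpa-WT. The deep library thus stood far below the others. Both shallow Sirpa-KO libraries were below each Sirpa-WT library, replicate 2 narrowly, on 94 to 116 counts of Smarca4 per shallow library. In CPM the shallow groups overlapped for Smarca4, and the difference in share was not tested. Arid1a took 5.48% in the deep library, 6.28% and 6.61% in Sirpa-KO replicates 2 and 3 and 2.88% to 3.31% in Sirpa-WT, with no overlap of the groups. Since the shares sum to 100%, a gene that takes more leaves less for the others, and the Arid1a values chose the gene.

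In the shallow libraries the order per kilobase was Smarca4 (42.6 ± 1.89 CPM per kilobase, SD, n = 5), Smarcc1 (12.7 ± 1.25), Smarcc2 (11.7 ± 5.52), Smarce1 (10.1 ± 2.36), Pbrm1 (7.51 ± 1.52), Arid1a (4.37 ± 2.22), Arid2 (3.51 ± 1.38), Smarcb1 (3.41 ± 1.06), Arid1b (0.609 ± 0.428) and Smarca2 (0.297 ± 0.309). These pool both groups to show the order alone. Like the shares above, they leave the counts of Gm8494 out of Smarce1, whose place is therefore uncertain. Only the step from Smarca4 to Smarcc1 and that from Smarcb1 to Arid1b exceeded the SDs of both neighbours added together. In the deep library the order was Smarcc1 (25.1 CPM per kilobase), Smarce1 (24.7), Smarca4 (21.7), Pbrm1 (17.5), Smarcc2 (17.5), Arid2 (8.26), Smarcb1 (8.21), Arid1a (7.45), Smarca2 (3.52) and Arid1b (1.95). The ATPase gene that led the shallow libraries therefore ranked lower there, behind Smarcc1 and Smarce1, and the 2 least abundant genes were the same pair.

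**Figure D4:**
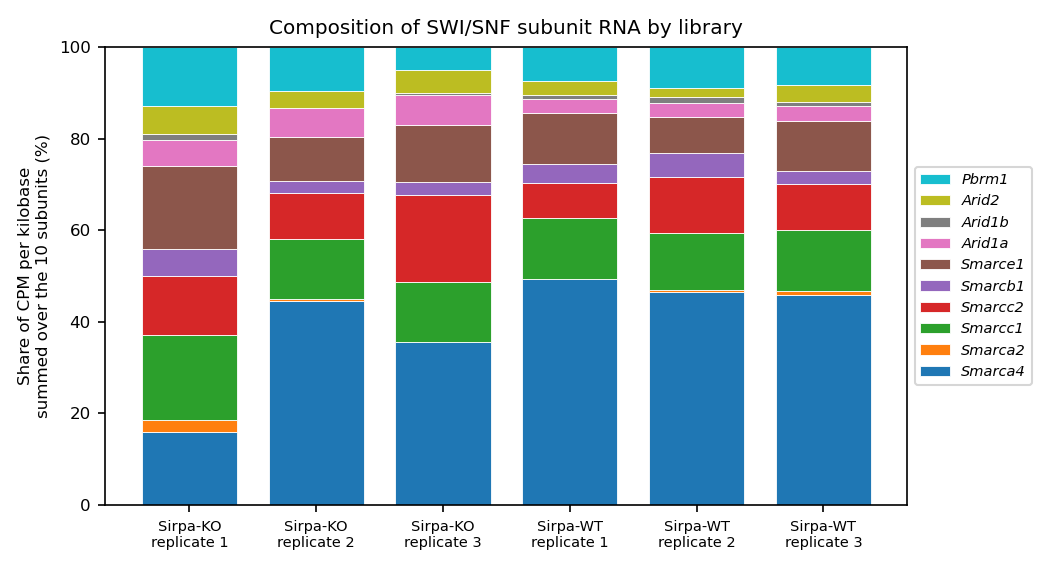
Share of each subunit in the CPM per kilobase summed over the 10 genes, 1 bar per library, Sirpa-KO on the left and Sirpa-WT on the right. The Smarca4 segment is 16.0% in Sirpa-KO replicate 1 and 35.5% to 49.4% in the other libraries.

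Other subunits of the complexes gave no call. Of 19 further SWI/SNF genes listed, 6 passed the count filter without the deep library, and 0 were higher and 0 lower by edgeR, with a median log2 fold change of 0.055. Actb, the beta-actin gene whose product is also a subunit, had a log2 fold change of 0.14 ± 0.12 (SE, adjusted p = 0.577). Smarcd2, which encodes the accessory subunit BAF60B, had 40.8, 73.8 and 120 CPM in Sirpa-KO replicates 1 to 3 and 124, 143 and 133 CPM in Sirpa-WT. Each Sirpa-KO library was below each Sirpa-WT library, as for 10.2% of genes tested, and the log2 fold change was -0.56 ± 0.23 (adjusted p = 0.117). Its paralog Smarcd1 was at -0.026 ± 0.38 (adjusted p = 0.978), and Smarcd3 had 2 and 2 counts in Sirpa-KO replicates 2 and 3 and 0 in each Sirpa-WT library. Smarcd2 and Bicral joined Smarca4 in the lower group of deep to shallow ratios, at -1.54 and -1.25, and the remaining 4 of the 6 did not.

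Other chromatin regulators from lists of the same kind gave 1 call. Of 33 ATP-dependent remodelling genes outside SWI/SNF, 27 passed the filter, 1 rose and 0 fell, where 1.32% of all genes were called higher and 4.52% lower, with a median log2 fold change of 0.41 and 22 of 27 above 0, beside 2821 of 5510 over all genes tested. The gene that rose was Atrx, a heterochromatin remodeller, with 658, 384 and 275 CPM in Sirpa-KO replicates 1 to 3 and 255, 183 and 182 CPM in Sirpa-WT and a difference of 0.53 ± 0.17 on the log2 scale (SE, edgeR adjusted p = 0.0295). With all 6 libraries Atrx stood at 0.92 ± 0.40 and was not called (edgeR adjusted p = 0.574). Without the deep library it was not called with DESeq2 (adjusted p = 0.141). In edgeR it was not called without Sirpa-WT replicate 2 (adjusted p = 0.177) or 3 (adjusted p = 0.0951), or with no filter (adjusted p = 0.116). The same held with at least 1 CPM in 2 libraries (adjusted p = 0.108) and once the trend on the deep-to-shallow ratio was removed (0.30, adjusted p = 0.434). Without Sirpa-KO replicate 2 as well as the deep library, its log2 fold change was 0.25. Scaling by library size alone called 3 of the 27 higher, and the replicate block 2. Of 25 Polycomb genes, which act against SWI/SNF on many promoters, 10 passed the filter and 0 were called, with a median of 0.36. Ezh2, the histone methyltransferase, stood at 0.57 ± 0.21 (edgeR adjusted p = 0.0822), and was called with library size alone (0.71, adjusted p = 0.0207). Its partner Suz12 stood at -0.155 ± 0.185 (adjusted p = 0.691).

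**Figure D5:**
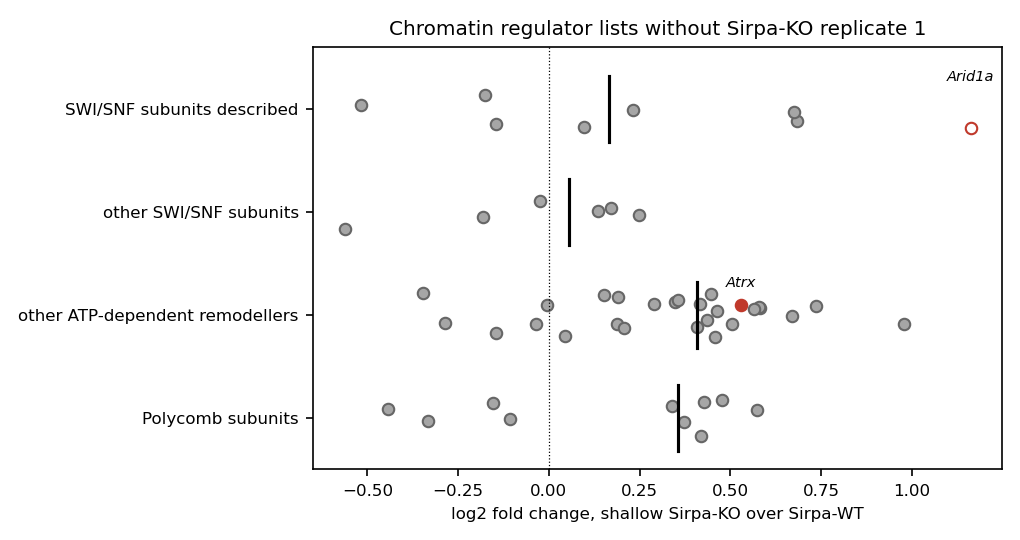
Log2 fold change of the shallow Sirpa-KO libraries over Sirpa-WT for the genes of 4 lists that passed the count filter, with the list median as a black line and a filled red circle for a gene called by edgeR. Atrx at 0.53 is the called gene, Arid1a (open red circle, 1.16) carries no test, and the medians run from 0.055 to 0.41.

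Over the 5 shallow libraries the genes most like Arid1a, by Pearson's r of log2 CPM among 2473 genes compared, were Mbnl1 (r = 0.999), Casc4 (0.996), Ahsa1 (0.993) and Cxcl10 (0.992). With 5 libraries in 2 groups such values are common, and 122 of the 2473 had r above 0.9. Only 2 of these 4 differed by more than 0.5 in log2 fold change, Cxcl10 at 1.16 and Ahsa1 at 0.56, with Casc4 at 0.37 and Mbnl1 at 0.25. Among the subunits compared, r with Arid1a was 0.71 for Smarcc1, 0.68 for Smarcc2, 0.50 for Smarce1, -0.39 for Pbrm1 and -0.92 for Smarca4. These are descriptions over libraries that share the same 2 groups and the same scaling.

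Around Arid1a on chromosome 4, the nearest tested genes were the pseudogene Gm13213, starting 40.8 kb below its start, with a log2 fold change of -0.34 (edgeR adjusted p = 0.743), and Hmgn2, 286 kb above, at 0.038 (adjusted p = 0.953). Neither passed the test.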

How the data were processed

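Paired-end mRNA libraries of cultured cells were compared, 3 Sirpa-KO and 3 Sirpa-WT, with groups and replicate numbers from the titles. Per the file headers, the authors deposited raw counts, whole fragments per gene from featureCounts 1.5.1 (exon features, gene models of Ensembl release 75, GRCm38), with no strand option, although the kit was stranded; STAR 2.6.0 is named in the submitters' processing notes. Fragments from overlapping genes on opposite strands were thus not told apart; exons of Arid1b, Arid1a and 5 other members overlapped no other gene, and those of Arid2, Smarca4 and Smarca2 did over at most 1.53% of their length. Symbols for 37607 genes came from GENCODE M21.

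Genes were filtered (filterByExpr, minimum count 10), TMM-scaled and tested by quasi-likelihood in edgeR (glmQLFit, robust=TRUE), 2-sided, Benjamini-Hochberg adjusted over all genes tested, threshold 0.05; SE was derived from the fold change and F. One fit left out Sirpa-KO replicate 1 and another used all 6 libraries. Members under the filter took their value from a fit without one. Plain CPM used total counts. Tools were edgeR 4.0.16, limma 3.58.1 and DESeq2 1.42.0 in R 4.3.3, and Python 3.11.15. On simulated data the fit without Sirpa-KO replicate 1 recovered 35.1% of 1.5-fold, 57.75% of 2-fold and 98.4% of 4-fold changes. Changes of 2-fold or less can thus go uncalled. The simulation drew each library from the gene proportions of the shallow ones, at the variation between replicates of that fit (7.25%). The real fit over all libraries had 75.8%, so the simulation does not test it.

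The members and gene lists were chosen with earlier results of these data known. Named genes were all members, called genes of each other list or else its 2 most abundant per kilobase, and paralogs of named SWI/SNF genes. Also named were the 4 genes most like Arid1a with a mean of at least 50 CPM, and nearest tested neighbours of Arid1a and Smarca4. Not all of those neighbours are reported here. Bicral, Sirpa, Gm8494 and Smarce1-ps1 were named after their values were seen. Alternatives were other scalings, filters, DESeq2, the replicate block, protein-coding genes only, removal of a lowess trend (span 0.3) on the ratio to Sirpa-KO replicate 1, thinning of that library, leaving out each library and, chosen after seeing the data, adding Gm8494 to Smarce1.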

Additional observations from a re-analysis of the deposited data

How the results depend on the processing

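The 0 of 7 subunits called stayed 0 in both fits under each edgeR alternative run, the replicate block included, although without Sirpa-KO replicate 1 leaving out Sirpa-WT replicate 1 or 2 tested 6. DESeq2 also called 0, but without Sirpa-KO replicate 1 it gave 6 of the 7 no adjusted p. With library size alone 3 remodellers and 1 Polycomb gene were called, against 1 and 0. Without Sirpa-KO replicate 1, the 322 genes called became 132 with DESeq2, 196 among protein-coding genes (fewer genes tested) and 119 with the trend removed. Leaving out each library gave 125 (Sirpa-KO replicate 2 left out) to 351, with 127 for Sirpa-KO replicate 3 and 214 for Sirpa-WT replicate 2. The replicate block gave 316 calls, and 0 over all libraries. Where Sirpa-KO replicate 1 is left out, Sirpa-WT replicate 1 is alone in its block and adds nothing to the group difference. That block fit is therefore close to leaving out Sirpa-WT replicate 1 (317 calls) and is not a separate check. Over all libraries same-numbered replicates correlated at -0.042 to 0.058 in their deviations from group means. The Sirpa-KO mean there includes the far deeper replicate 1, and shallow counts carry counting error. These correlations therefore cannot decide whether same-numbered replicates were paired. Over all libraries the 0 calls (344 at an unadjusted p under 0.05, edgeR) became 1 with DESeq2 and 0 to 322 with each library left out. Apart from construction, the causes were not tested.

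Signs of small, uncalled log2 fold changes turned. Smarcb1 over all libraries (0.16) was -0.053 with RLE scaling, -0.11 unfiltered, -0.14 where 2 libraries had to reach 1 CPM, -0.095 in protein-coding genes, -0.14 with Sirpa-KO replicate 1 thinned and -0.52 to 0.30 with each library left out. With the trend removed Smarca4 was 0.050, Smarcc1 -0.071 and Actb -0.095. Smarce1 with Gm8494 added was -0.14 and -0.48. With library size alone Arid1b over all libraries was 0.066, Suz12 over all libraries 0.12 and Smarcd1 0.11; Smarcd1 was 0.23 with the replicate block. Leaving out each library without Sirpa-KO replicate 1 gave Pbrm1 -0.58 to 0.18, Smarcc1 -0.018 to 0.17, Smarce1 -0.10 to 0.46, Actb -0.0095 to 0.23 and Smarcd1 -0.22 to 0.22. Over all libraries it gave Pbrm1 -0.15 to 0.58, Smarca2 -0.93 to 2.46 and Smarcd1 -0.026 to 0.68. Depth limits the shallow libraries most for Arid1b and Smarca2, whose fitted values at the floor depend on the prior count and are not read as changes. In fits that leave 1 shallow Sirpa-KO library, it is assumed to vary like Sirpa-WT.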
